A study of Mus musculus with 6 samples.

Results

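The genes described are 9 genes of retinoid handling: Adh1, Rdh10, Aldh1a1, Aldh1a2, Aldh1a3, Rbp4, Stra6, Cyp26b1 and Rarb. They were picked by symbol, out of the 19572 features with a symbol among 22206 on the array, because Adh1 was known to be lower in some of these hearts, to see whether other steps of retinoic acid synthesis went with it. Their values on the 6 arrays are therefore a description and carry no test. Each gene had 1 feature, and no gene of the 9 averaged below 3.65 on the log2 scale, the 30th percentile of feature means, under which a feature was called dim.

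RNA of whole hearts was measured on 6 mouse Clariom S arrays, in 3 groups of 2 biological replicates. The 12W-TTg group carried Tcf21iCre, a Tomato reporter and MGTH2A, known as a transgene for the reprogramming factors Mef2c, Gata4, Tbx5 and Hand2 although the labels do not spell the name out, and its hearts were taken 3 months after myocardial infarction. The 12W-Ctrl group carried Tcf21iCre and Tomato without MGTH2A and was taken at the same 3 months. The 8W-Ctrl group had the genotype of 12W-Ctrl and was taken 2 months after infarction. In every group the mice were male and 8 weeks old when the left coronary artery was ligated, and mice with an ejection fraction above 45% after 2 days were left out. Tcf21, whose name the Cre allele carries, is known as a gene of cardiac fibroblasts, while the arrays hold RNA of all cells of the heart. The design compares hearts with and without the transgene at 3 months, and control hearts 1 month apart. Uninfarcted hearts were not analysed here, and MGTH2A was not examined at 2 months.

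Retinoic acid is a signal made from vitamin A. Retinol travels in blood bound to its carrier and enters cells, where alcohol or retinol dehydrogenases oxidise it to retinal and aldehyde dehydrogenases oxidise retinal to retinoic acid. Retinoic acid binds nuclear receptors that sit on DNA and switch on target genes, and it is cleared by cytochromes of the Cyp26 family. In the heart the pathway is known for patterning the atria in the embryo and for signalling from the epicardium, and resting fibroblasts express several of its enzymes.

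The promoter of Rarb, a receptor gene that is also a classical retinoic acid target, is shown because it holds the response element through which the pathway can be read, and that of Adh1 because the description turns on this gene. Both are the 250 bases before the gene's start in RefSeq (GRCm38.p6), 5′ to 3′ on the gene's strand. Rarb lies at chr14:16575477-16575726 on the minus strand and Adh1 at chr3:138277335-138277584 on the plus strand. Capitals mark a match to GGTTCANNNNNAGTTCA, a pair of receptor half-sites 5 bases apart.
Rarb: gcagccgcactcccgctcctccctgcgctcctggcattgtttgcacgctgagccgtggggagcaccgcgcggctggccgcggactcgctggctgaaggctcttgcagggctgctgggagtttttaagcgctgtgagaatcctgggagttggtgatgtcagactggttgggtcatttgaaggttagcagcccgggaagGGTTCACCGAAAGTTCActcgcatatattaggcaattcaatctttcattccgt
Adh1: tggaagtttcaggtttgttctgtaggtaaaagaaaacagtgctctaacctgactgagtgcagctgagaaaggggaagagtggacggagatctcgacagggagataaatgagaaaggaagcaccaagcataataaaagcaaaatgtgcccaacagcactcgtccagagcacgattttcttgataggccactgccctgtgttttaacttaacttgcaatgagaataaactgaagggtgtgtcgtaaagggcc

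The element of Rarb, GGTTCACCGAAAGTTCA, begins 53 bases before the start. On either strand its motif was found in 2 of 32851 RefSeq promoters of this length (0.00609%). The repeat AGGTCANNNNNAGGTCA was in 3 of them (0.00913%) and in none of the 12 promoters listed for 7 of the 9 genes. The single half-site AGGTCA was in 14.0% of all promoters and in none of those 12. The half-site AGTTCA was in 11.8%, and of the 12 it was found in that of Rarb alone, where it is part of the longer match. In the window shown for Adh1 none of these letters were found.

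Before the single genes, 3 facts about the arrays touch them. Array medians lay between 4.91 and 5.0, and replicates correlated across features at 0.984 to 0.989. Markers of cardiomyocytes were high on every array, with a mean over 10 genes of 18.62 to 18.96, close to the highest value on each array, 19.93. Myl2 and Mb were at 19.93 on all 6 arrays, so this mean can hardly show differences in myocyte RNA. Ryr2, the lowest of the 10, ran from 14.18 on replicate 1 of 8W-Ctrl to 16.49 on replicate 2 of 12W-TTg. Replicate 2 of 12W-Ctrl stood apart in the atrial list, with a mean of 8.00 over 8 genes against 11.11 to 13.19 on the other arrays. The low mean came mainly from Myl7, the atrial myosin light chain, at 3.45, Myl4 at 5.90 and Sln at 5.53. Stard10 (8.03), Kcnj3 (10.33), Bmp10 (3.04) and Nppa (19.86) were not lowest on that array. Replicate 1 of 8W-Ctrl stood apart for fat, with a mean of 7.00 over the 6 measured of 8 adipocyte genes against 4.29 to 4.99 elsewhere. The fat hormone gene Adipoq was at 10.34 on that array and at 3.98 to 4.83 on the others. Retn (8.29), Cidec (7.47) and Plin1 (4.56) were also highest there. Plin4, of the same list, was lowest there, at 8.37, and Lep, at 2.96, did not stand out.

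**Figure D1:**
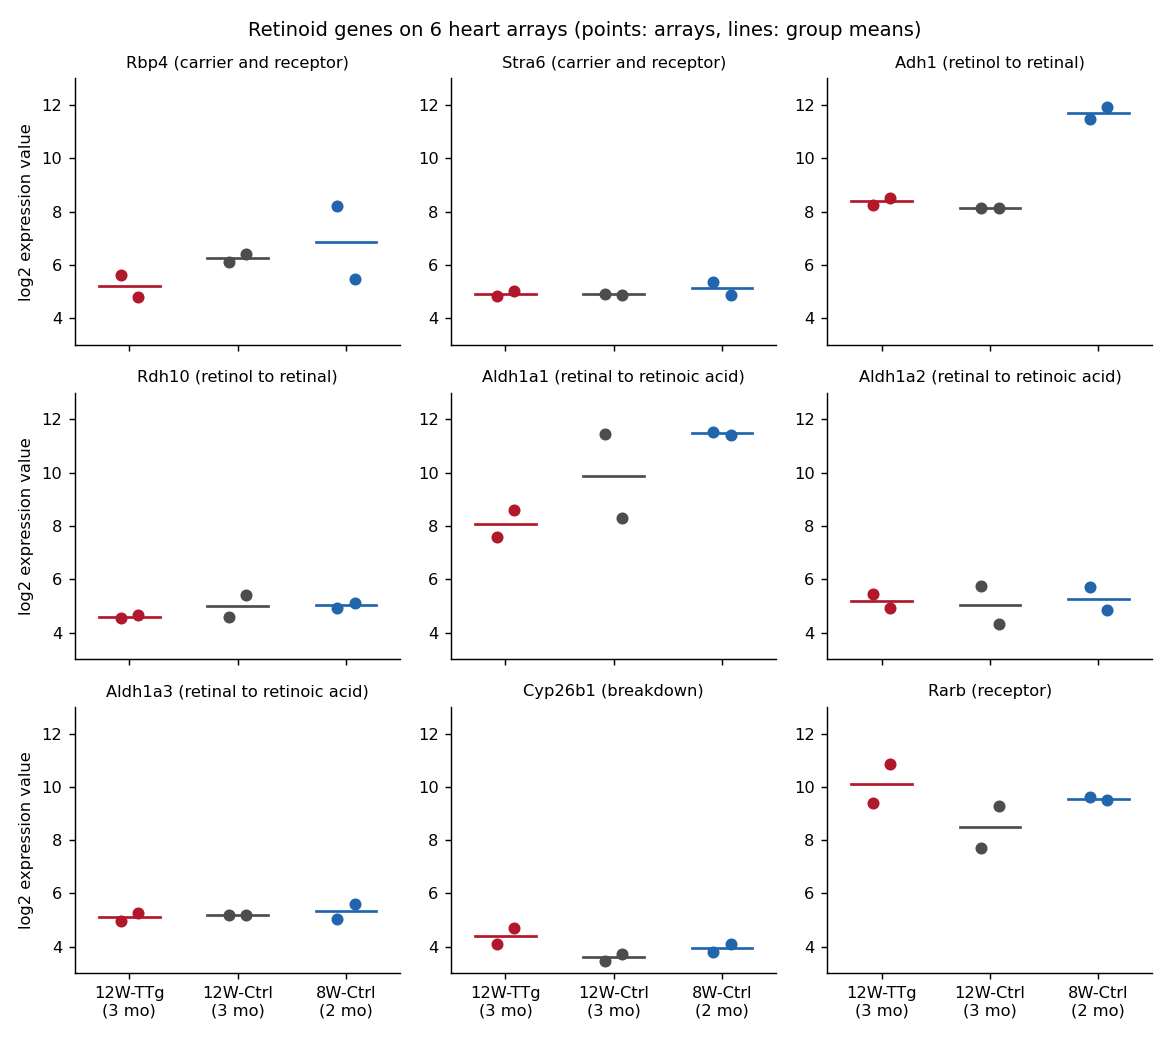
Log2 expression values of the 9 genes on each array (points) with group means (lines), for 12W-TTg and 12W-Ctrl at 3 months and 8W-Ctrl at 2 months after infarction. Adh1 is near 8 in all 4 hearts taken at 3 months and above 11 in both taken at 2 months, and Aldh1a1 is high in 3 arrays and low in 3.

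Retinol reaches cells bound to Rbp4, a carrier secreted by liver and fat, and Stra6 is its receptor at the cell surface. Rbp4 had log2 values of 5.61 and 4.81 in 12W-TTg, 6.13 and 6.42 in 12W-Ctrl, and 8.23 and 5.49 in 8W-Ctrl. The TTg values lay below those of 12W-Ctrl, whereas the 8W-Ctrl pair spanned all but the lowest of the other values. The difference was −1.07 ± 0.79 between 12W-TTg and 12W-Ctrl, −0.59 ± 0.79 between 12W-Ctrl and 8W-Ctrl, and −1.65 ± 0.79 between 12W-TTg and 8W-Ctrl. Each difference is given on the log2 scale as the first group's mean minus the second's, with its SE from limma fitted to all 6 arrays (n = 2 arrays per group).

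The highest Rbp4 value was on replicate 1 of 8W-Ctrl, the array with the high adipocyte mean. Without that array the Rbp4 difference turned to 0.79 between 12W-Ctrl and 8W-Ctrl and became −0.28 between 12W-TTg and 8W-Ctrl. Without replicate 2 of 8W-Ctrl in its place they were −1.96 and −3.02. On replicate 1 of 8W-Ctrl Cyp2e1, an oxidase of liver and fat from the hepatocyte list, was at 8.32 against 3.90 to 4.80 elsewhere. The liver gene Alb lay between 3.22 and 4.25 on all arrays. Of the 6 adipocyte genes measured, 4 had a lower mean and 2 a higher mean in 12W-Ctrl than in 8W-Ctrl, and Lep, the hormone leptin, was below the dim limit on every array.

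Stra6 had 4.84 and 5.01 in 12W-TTg, 4.91 and 4.88 in 12W-Ctrl, and 5.38 and 4.87 in 8W-Ctrl. Its values overlapped in all 3 comparisons and spanned 0.54 in all. The 95% interval of the difference ran from −0.58 to 0.64 between 12W-TTg and 12W-Ctrl and from −0.84 to 0.38 between 12W-Ctrl and 8W-Ctrl.

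Adh1 encodes the class I alcohol dehydrogenase, which oxidises ethanol and, at high retinol, retinol to retinal. Its log2 values were 8.26 and 8.53 in 12W-TTg, 8.14 and 8.14 in 12W-Ctrl, and 11.48 and 11.93 in 8W-Ctrl. The 4 hearts taken at 3 months lay within 0.39 of each other, and both hearts taken at 2 months lay far above them. Adh1 was lower by 3.57 ± 0.26 in 12W-Ctrl than in 8W-Ctrl, an 11.8-fold lower mean, and by 3.31 ± 0.26 in 12W-TTg than in 8W-Ctrl, a 9.92-fold lower mean. Those differences share the 8W-Ctrl arrays. Between 12W-TTg and 12W-Ctrl the groups did not overlap, but the difference was 0.26 ± 0.26, with a 95% interval of −0.35 to 0.86. In bulk tissue, fewer cells of a type and less RNA per cell cannot be told apart.

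Low Adh1 values were thus shared by both genotypes at 3 months. Time after infarction and age at harvest cannot be told apart here. In 8W-Ctrl, where Adh1 was high on both arrays, the adipocyte mean was 7.00 on replicate 1 and 4.53 on replicate 2. Fibroblast genes, of which 11 of 12 were measured, had means of 11.42 and 10.30 in 12W-TTg, 12.70 and 11.77 in 12W-Ctrl, and 12.78 and 11.23 in 8W-Ctrl. They overlapped between the control groups, with 5 genes lower and 6 higher in 12W-Ctrl than in 8W-Ctrl. All 11 had a lower mean in 12W-TTg than in 12W-Ctrl. Of the 8 epicardial and mesothelial genes measured, 6 had a lower mean in 12W-Ctrl than in 8W-Ctrl and 8 a lower mean in 12W-TTg than in 8W-Ctrl. Among them Upk3b, a marker of the mesothelial surface named after its values were seen, had the largest differences, −1.60 ± 0.68 and −2.41 ± 0.68. Its groups did not overlap, but 8.88 in 12W-Ctrl lay just below 8.89 in 8W-Ctrl. Msln (0.41) and Tbx18 (0.12) had a higher mean in 12W-Ctrl than in 8W-Ctrl. The part of fat cells, fibroblasts or epicardial and mesothelial cells in the Adh1 values was not tested.

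Rdh10, the retinol dehydrogenase that makes most of the retinal for signalling in the embryo, had 4.54 and 4.64 in 12W-TTg, 4.60 and 5.42 in 12W-Ctrl, and 4.93 and 5.12 in 8W-Ctrl. Its difference was −0.42 ± 0.31 between 12W-TTg and 12W-Ctrl and −0.02 ± 0.31 between 12W-Ctrl and 8W-Ctrl. Without replicate 1 of 12W-Ctrl these were −0.83 and 0.40, and without replicate 2 they were −0.01 and −0.43. The 95% interval between 12W-Ctrl and 8W-Ctrl ran from −0.75 to 0.72. Rdh10 averaged 5.03 in 8W-Ctrl, and the lowest value of any feature on an array was 1.77 to 1.96. A fall of the size seen for Adh1 could therefore not have appeared in it, nor in Stra6, which averaged 5.13 in 8W-Ctrl. Only between 12W-TTg and 8W-Ctrl did the Rdh10 values not overlap, with a difference of −0.44 ± 0.31.

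**Figure D2:**
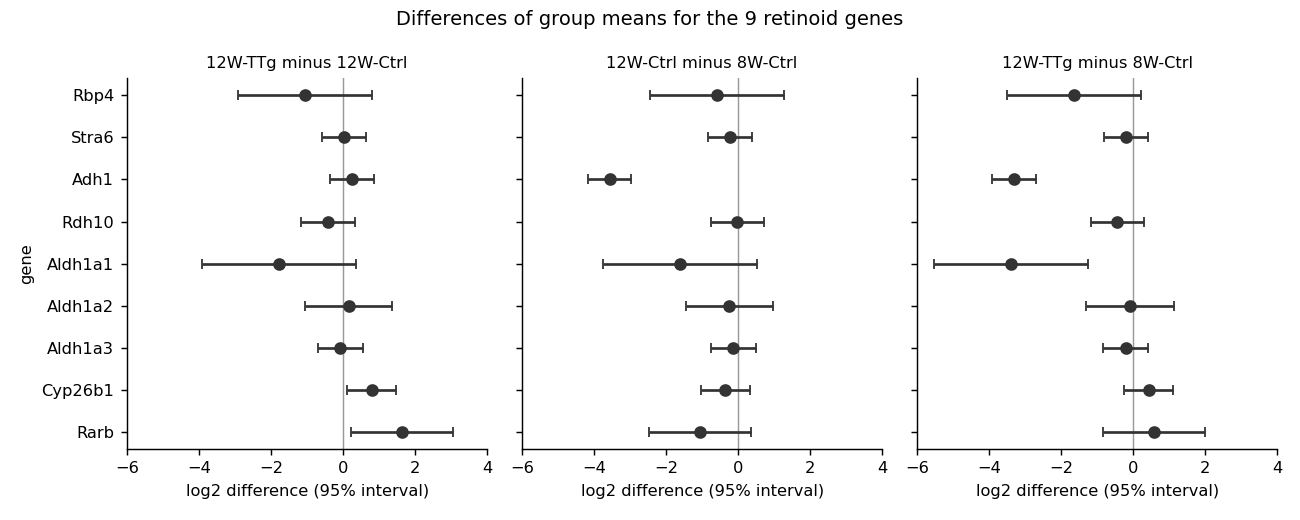
Log2 differences of group means for the 9 genes in the 3 comparisons (points) with 95% intervals from the limma fit (bars). Adh1 and Aldh1a1 lie farthest below 0 against 8W-Ctrl, at −3.31 and −3.40 for 12W-TTg.

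The 3 Aldh1a genes encode retinal dehydrogenases, which make retinoic acid. Aldh1a1 had 7.58 and 8.58 in 12W-TTg, 11.45 and 8.28 in 12W-Ctrl, and 11.54 and 11.41 in 8W-Ctrl. The values fell into a high set of 3 arrays and a low set of 3, and the 12W-Ctrl pair was split between them. Aldh1a1 differed by −3.40 ± 0.91 between 12W-TTg and 8W-Ctrl, a 10.5-fold lower mean with no overlap. The difference was −1.79 ± 0.91 between 12W-TTg and 12W-Ctrl and −1.61 ± 0.91 between 12W-Ctrl and 8W-Ctrl, and in both the values overlapped.

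Both differences that involve 12W-Ctrl rest on which of its arrays is used. Without replicate 1 of 12W-Ctrl they were −0.20 and −3.20, and without replicate 2 they were −3.37 and −0.03. Replicate 2 of 12W-Ctrl is the array with the low atrial mean, and both 12W-TTg arrays, which were low for Aldh1a1 too, had atrial means of 13.19 and 12.22. Epicardial and mesothelial genes, of which 8 of 9 were measured, had means of 4.78 and 4.78 in 12W-TTg, 5.75 and 4.82 in 12W-Ctrl, and 5.37 and 6.14 in 8W-Ctrl, so the same 3 arrays were low. Upk3b was at 7.51 and 6.74 in 12W-TTg, 8.88 and 6.99 in 12W-Ctrl, and 8.89 and 10.18 in 8W-Ctrl. Upk1b, Msln, Lrrn4 and Krt19 were also lowest on those 3 arrays, Krt19 near the dim limit at 3.09 to 3.70. Wt1 was tied at 4.38 on both 12W-Ctrl arrays. Tbx18 was highest on replicate 2 of 12W-TTg, at 6.14, and Krt8 was higher there (4.51) than on replicate 1 of 8W-Ctrl (4.45). Macrophage means, over 9 of 10 genes, were 8.21 and 7.56 in 12W-TTg, 10.06 and 8.57 in 12W-Ctrl, and 9.73 and 8.92 in 8W-Ctrl, again lowest on those 3 arrays. The part of these cells in the Aldh1a1 values was not tested.

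Aldh1a2, the main retinoic acid synthase of the embryonic heart and epicardium, had 5.45 and 4.92 in 12W-TTg, 5.75 and 4.31 in 12W-Ctrl, and 5.72 and 4.83 in 8W-Ctrl. Replicate 1 was the higher array of each pair and the groups overlapped in all 3 comparisons. Its differences were 0.16 ± 0.52 between 12W-TTg and 12W-Ctrl, −0.25 ± 0.52 between 12W-Ctrl and 8W-Ctrl and −0.09 ± 0.52 between 12W-TTg and 8W-Ctrl. Each of these signs turned when some single array was left out.

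Aldh1a3, the third isozyme, had 4.97 and 5.26 in 12W-TTg, 5.20 and 5.19 in 12W-Ctrl, and 5.06 and 5.59 in 8W-Ctrl. Its groups overlapped throughout, and the 95% interval between 12W-Ctrl and 8W-Ctrl ran from −0.76 to 0.50. Of the 3 isozymes, then, only Aldh1a1 was at least 2-fold lower by group mean where Adh1 was low. Even so, 1 of the 4 hearts with low Adh1 had a high Aldh1a1. Aldh1a2 and Aldh1a3 averaged 5.28 and 5.33 in 8W-Ctrl, so, as with Rdh10, a fall of Adh1's size could not have appeared in them.

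**Figure D3:**
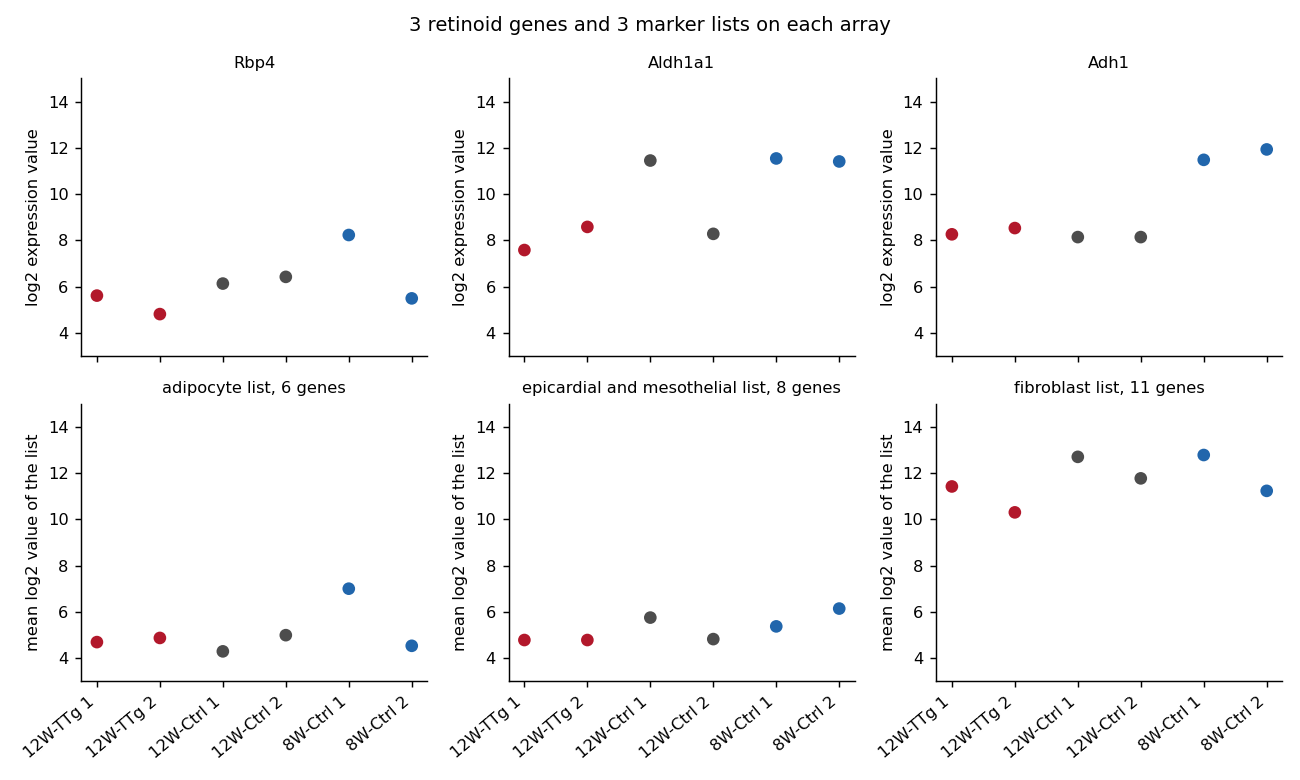
Log2 values of Rbp4, Aldh1a1 and Adh1 (top) and mean log2 values of the adipocyte, epicardial and mesothelial, and fibroblast marker lists (bottom) on each array, red for 12W-TTg, grey for 12W-Ctrl and blue for 8W-Ctrl. The highest Rbp4 value and the highest adipocyte mean (7.00) are on the same array, 8W-Ctrl replicate 1.

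Cyp26b1, a cytochrome that hydroxylates retinoic acid and so clears it, had 4.09 and 4.71 in 12W-TTg, 3.48 and 3.74 in 12W-Ctrl, and 3.82 and 4.11 in 8W-Ctrl. The TTg values lay above those of 12W-Ctrl and overlapped with those of 8W-Ctrl. The difference was 0.79 ± 0.29 between 12W-TTg and 12W-Ctrl, 0.48 without replicate 2 of 12W-TTg, and −0.36 ± 0.29 between 12W-Ctrl and 8W-Ctrl. With 1 value below 3.65, the size of these differences depends on the background. From the 8W-Ctrl mean of 3.97, a fall of Adh1's size could not have appeared.

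Rarb encodes retinoic acid receptor beta. It had 9.40 and 10.84 in 12W-TTg, 7.71 and 9.27 in 12W-Ctrl, and 9.61 and 9.49 in 8W-Ctrl. The TTg values lay above the 12W-Ctrl values by a narrow margin, with replicate 1 of 12W-Ctrl lowest and replicate 2 of 12W-TTg highest. The difference was 1.63 ± 0.60 between 12W-TTg and 12W-Ctrl, −1.06 ± 0.60 between 12W-Ctrl and 8W-Ctrl, and 0.57 ± 0.60 between 12W-TTg and 8W-Ctrl. It became 0.85 without replicate 1 of 12W-Ctrl and 0.91 without replicate 2 of 12W-TTg in the first comparison, and −0.28 without replicate 1 of 12W-Ctrl in the second. In 12W-Ctrl, where Adh1 was low, Rarb, the gene with the response element shown, was below both 8W-Ctrl values, whereas in 12W-TTg, where Adh1 was also low, its values lay on either side of them.

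Across the 9 genes, 5 had a higher and 4 a lower mean in 12W-TTg than in 12W-Ctrl, against 50.9% and 48.3% of all features. The median was 0.03 against 0.01 over all features. In 12W-Ctrl against 8W-Ctrl all 9 had a lower mean, against 48.8% of all features (50.5% higher), with a median of −0.36 against 0.01. The differences of Rdh10 (−0.02), Aldh1a3 (−0.13), Stra6 (−0.23), Aldh1a2 (−0.25) and Rbp4 (−0.59) were smaller than their SEs. Without replicate 1 of 8W-Ctrl, the array with the high adipocyte mean, 6 were lower, and Rbp4 (0.79), Aldh1a2 (0.20) and Stra6 (0.03) were higher. Leaving out single arrays turned the sign of 5 of the 9 in this comparison, Aldh1a3 and Rdh10 being the others. In 12W-TTg against 8W-Ctrl 7 were lower and 2 higher, against 47.3% and 52.1% of all features, with a median of −0.21 against 0.02. Counting groups without overlap, 4 of 9 did not overlap between 12W-TTg and 12W-Ctrl (38.4% of all features), 3 of 9 between 12W-Ctrl and 8W-Ctrl (35.7%) and 3 of 9 between 12W-TTg and 8W-Ctrl (40.1%). By direction, 1 was lower and 3 were higher in 12W-TTg than in 12W-Ctrl, where 19.3% of all features were lower and 19.1% higher in this way. In 12W-Ctrl against 8W-Ctrl 3 of 9 were lower and none was higher, against 17.4% and 18.3% of all features. In 12W-TTg against 8W-Ctrl 3 were lower and none was higher, against 18.9% and 21.2%. By size, Aldh1a1 and Rbp4 were at least 2-fold lower and Rarb at least 2-fold higher in 12W-TTg than in 12W-Ctrl, where 2.87% and 1.29% of all features were. Adh1, Aldh1a1 and Rarb were at least 2-fold lower and none was higher in 12W-Ctrl than in 8W-Ctrl, against 1.83% and 1.7% of all features. Adh1, Aldh1a1 and Rbp4 were at least 2-fold lower and none was higher in 12W-TTg than in 8W-Ctrl, against 3.4% and 1.71%. At an adjusted p under 0.05 in limma (Benjamini-Hochberg over 22206 features), 0.0045% of features were called between 12W-TTg and 12W-Ctrl, none of them among the 9. Between 12W-Ctrl and 8W-Ctrl 0.0045% were called, which is Adh1 alone, and between 12W-TTg and 8W-Ctrl 0.0%. Since Adh1 was the reason for choosing these genes, nothing is read from its call. In that comparison it was made in 3 of 13 alternative settings (a robust prior, median centring and a replicate block), none of which left out an array. Between 12W-TTg and 8W-Ctrl, where it was not made, 3 of 13 settings made it: a robust prior, a replicate block and leaving out replicate 2 of 8W-Ctrl.

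Distance from Adh1 was taken as the mean absolute distance between log2 values over the 6 arrays, after each feature was centred on its own mean. Profiles were not scaled, so the distance depends on the size of the changes as well as their shape. A gene that varied little lies far from Adh1 even if its shape is alike. Among the other 8 genes Aldh1a1 was nearest, at 0.97, which ranks 126 of 15545 features that are not dim. Rbp4 followed at 1.19 (rank 715). Stra6 and Rdh10 were at 1.43, Aldh1a2 and Aldh1a3 at 1.45, and Cyp26b1 and Rarb at 1.55 (ranks 8270 and 8611).

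Of all named features, the 5 nearest to Adh1 were Fmo2 at 0.45, Inmt at 0.53, Efemp1 at 0.55, Gsta3 at 0.65 and Gng11 at 0.71, and 3 features without a symbol lay nearer than the last of them. Fmo2, a flavin monooxygenase that oxidises foreign compounds, had 10.19 and 10.82 in 12W-TTg, 10.92 and 9.79 in 12W-Ctrl, and 13.14 and 12.92 in 8W-Ctrl. Inmt, a methyltransferase of indole amines, had 4.54 and 4.28 in 12W-TTg, 4.19 and 4.10 in 12W-Ctrl, and 6.58 and 6.45 in 8W-Ctrl. Efemp1 encodes the matrix protein fibulin-3, Gsta3 a glutathione transferase and Gng11 a G protein subunit. In each of the 5, both 2-month hearts lay above all 4 hearts taken at 3 months, which is the property the distance selects for, so this is a description.

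**Figure D4:**
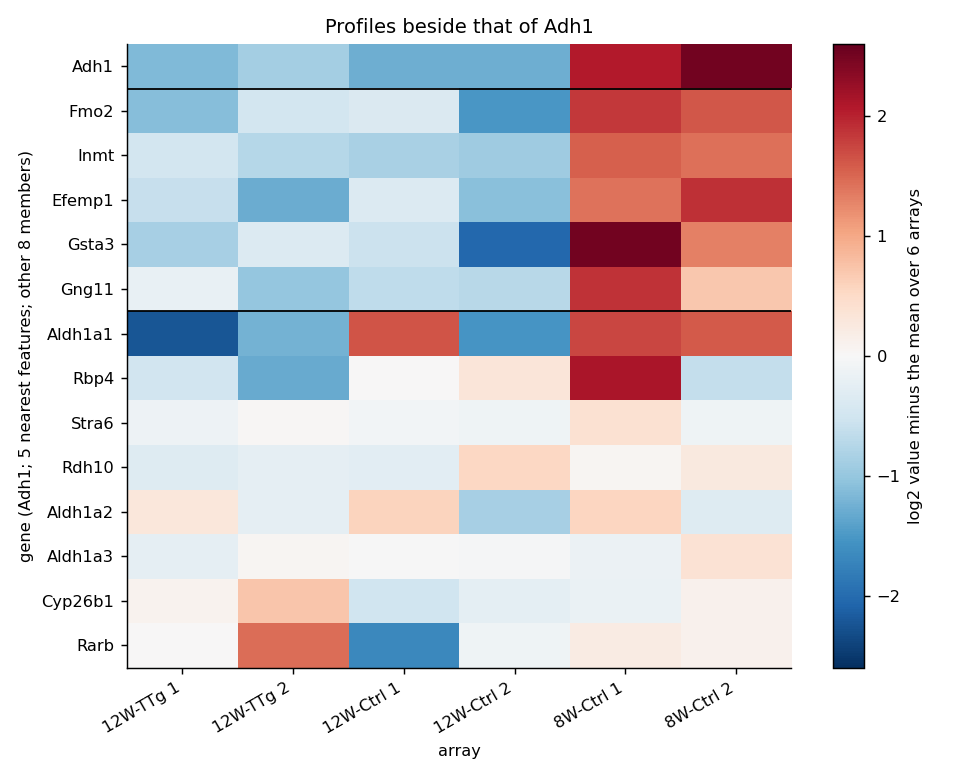
Log2 values minus each feature's mean over the 6 arrays (colour) for Adh1, the 5 named features with the smallest distance to it, and the other 8 genes in order of distance. The first 6 rows are high on the 8W-Ctrl arrays alone, Aldh1a1 is also high on 12W-Ctrl replicate 1, and Rarb is lowest there.

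Adh1 sits on chromosome 3 in a row of alcohol dehydrogenase genes, between Adh7 and Adh6a in RefSeq's gene order, followed by Adh6b, Adh4 and Adh5. Adh7, a class IV enzyme that oxidises retinol in epithelia, stayed between 2.75 and 2.97 on the 6 arrays. Adh6a lay between 3.31 and 4.36, Adh4 between 3.22 and 3.65, and Adh5, which acts on formaldehyde bound to glutathione, between 5.45 and 6.29. The differences of these 4 genes between 12W-Ctrl and 8W-Ctrl ran from −0.24 for Adh5 to 0.33 for Adh6a, against −3.57 for Adh1. Adh6b was not analysed here. Adh7 and Adh4 lay near or below the dim limit of 3.65 and Adh6a on both sides of it, so a decrease in them would not be detectable. A fall of Adh1's size would take Adh5, at 6.10 and 5.76 in 8W-Ctrl, below that limit as well.

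Aldh1a1 has the near-identical copy Aldh1a7 beside it on chromosome 19, and signal can be shared between such copies. Aldh1a7 had 4.23 and 4.49 in 12W-TTg, 4.39 and 4.17 in 12W-Ctrl, and 4.75 and 4.87 in 8W-Ctrl. On the other side lies Anxa1, an anti-inflammatory annexin, with 9.40 and 8.31 in 12W-TTg, 10.71 and 9.89 in 12W-Ctrl, and 11.64 and 10.45 in 8W-Ctrl. Its difference between 12W-TTg and 8W-Ctrl was −2.19.

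The rest of the pathway was followed in 6 lists of 93 other genes, of which 85 were measured. Of the 85, 65 were not dim, and a fall in the dim ones could hardly show. In none of the 3 comparisons did any of the 85 pass limma's test at an adjusted p under 0.05, and their smallest adjusted p values were 0.646, 0.477 and 0.34. At an unadjusted p under 0.05 there were 11 of 85 in 12W-TTg against 12W-Ctrl (12.9%, with 7.47% of all features), 5 in 12W-Ctrl against 8W-Ctrl (5.88%, with 8.0%) and 6 in 12W-TTg against 8W-Ctrl (7.06%, with 9.71%). Their median differences were 0.05, −0.01 and 0.0. No list therefore had a called member in either direction, and the genes below are given by value.

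Of 14 genes for retinoid transport, storage and release, 8 had a higher and 6 a lower mean in 12W-Ctrl than in 8W-Ctrl. Fabp5, which carries fatty acids and retinoic acid to the nucleus, differed by −1.10 ± 0.35 there (limma, adjusted p = 0.542). Rbp7, a retinol-binding protein of endothelium, had 6.34 and 5.94 in 12W-TTg, 6.35 and 7.95 in 12W-Ctrl, and 6.19 and 8.40 in 8W-Ctrl. Dgat1, which can store retinol as ester, differed by −0.69 ± 0.30 between 12W-TTg and 8W-Ctrl (limma, adjusted p = 0.526).

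Of 22 other alcohol and retinol dehydrogenases and retinal reductases, 9 had a higher and 12 a lower mean in 12W-Ctrl than in 8W-Ctrl. Dhrs7, a short-chain dehydrogenase, had 8.42 and 8.79 in 12W-TTg, 8.44 and 8.45 in 12W-Ctrl, and 9.52 and 9.31 in 8W-Ctrl. Like Adh1 it was lower in all 4 hearts at 3 months, but its difference of −0.97 ± 0.24 between 12W-Ctrl and 8W-Ctrl did not pass (limma, adjusted p = 0.477). Dhrs7c, a retinol dehydrogenase of striated muscle, had 12.66 and 12.81 in 12W-TTg, 10.79 and 12.22 in 12W-Ctrl, and 12.40 and 12.32 in 8W-Ctrl. It differed by 1.23 ± 0.44 between 12W-TTg and 12W-Ctrl (limma, adjusted p = 0.661) and, like Rarb, was lowest on replicate 1 of 12W-Ctrl.

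Among 19 other aldehyde dehydrogenases and oxidases, 13 had a higher and 6 a lower mean in 12W-TTg than in 12W-Ctrl. The 3 genes with the largest differences there are known as mitochondrial enzymes that do not act on retinal. Aldh4a1, of proline breakdown, had 9.01 and 9.45 in 12W-TTg, 7.67 and 8.17 in 12W-Ctrl, and 7.81 and 7.59 in 8W-Ctrl. It was higher than in both control groups without overlap, by 1.31 ± 0.29 against 12W-Ctrl (limma, adjusted p = 0.646) and 1.53 ± 0.29 against 8W-Ctrl (limma, adjusted p = 0.34). Aldh5a1, of GABA breakdown, and Aldh6a1, of valine breakdown, differed by 1.12 ± 0.34 and 0.91 ± 0.35 between 12W-TTg and 12W-Ctrl (limma, adjusted p = 0.661 each). Both were lowest on replicate 1 of 12W-Ctrl, at 7.13 and 12.36. Aox1, an aldehyde oxidase that can also oxidise retinal, differed by −0.57 ± 0.34 between 12W-Ctrl and 8W-Ctrl.

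**Figure D5:**
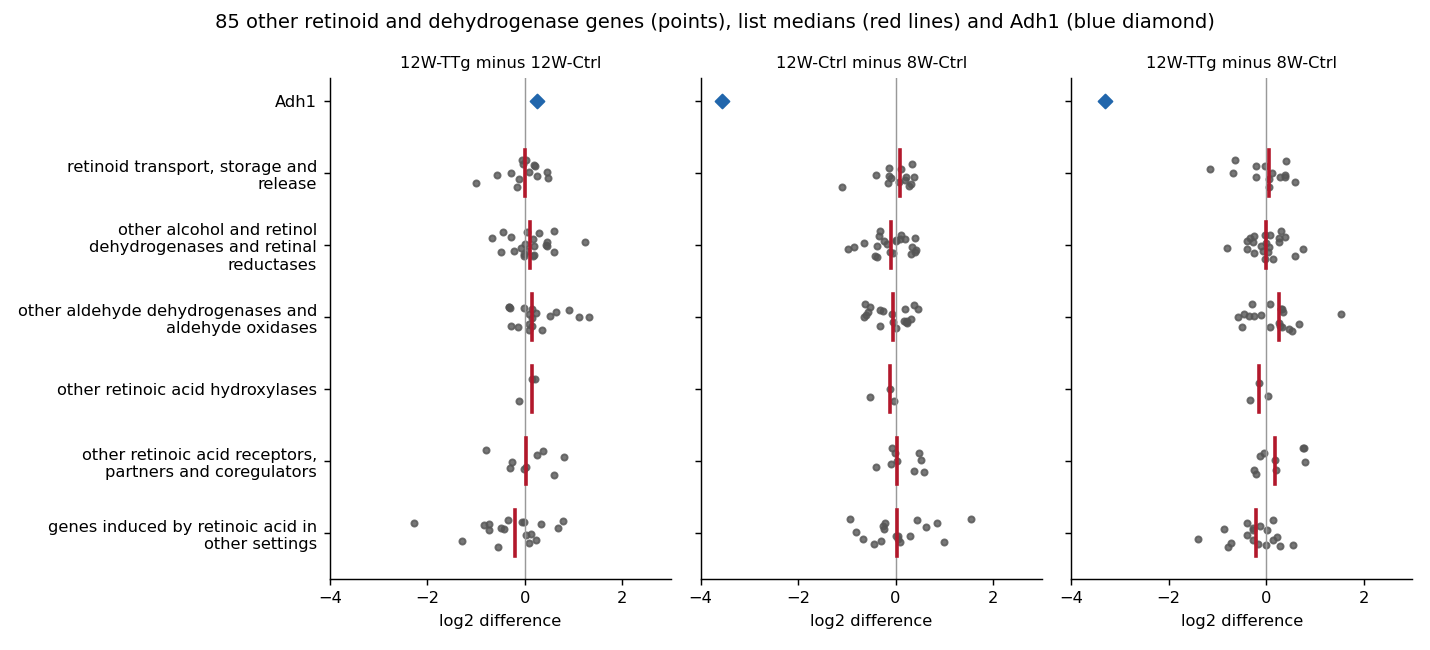
Log2 differences of 85 other retinoid and dehydrogenase genes in the 3 comparisons (points, spread vertically for sight only), with the median of each list (red lines) and Adh1 (blue diamond). List medians lie between −0.21 and 0.26, and Adh1 lies at −3.57 in 12W-Ctrl against 8W-Ctrl.

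The other hydroxylases of retinoic acid, Cyp26a1 and Cyp26c1, were dim on every array, and Cyp2s1 differed by −0.53 ± 0.37 between 12W-Ctrl and 8W-Ctrl. Among 9 other receptors, partners and coregulators, Rara, the alpha receptor, had 6.90 and 6.99 in 12W-TTg, 8.01 and 7.45 in 12W-Ctrl, and 7.36 and 6.95 in 8W-Ctrl. Its difference of −0.79 ± 0.29 between 12W-TTg and 12W-Ctrl had the opposite sign to that of Rarb and did not pass (limma, adjusted p = 0.661). Rxrg, a partner receptor of muscle, had 11.93 and 12.22 in 12W-TTg, 10.35 and 12.20 in 12W-Ctrl, and 11.80 and 10.76 in 8W-Ctrl.

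Of 18 genes that retinoic acid induces in other settings, 7 had a higher and 11 a lower mean in 12W-TTg than in 12W-Ctrl, with a median of −0.20. There 8 of the 18 were lower without overlap (44.4%, with 19.3% of all features) and 3 higher (16.7%, with 19.1%). At an unadjusted p under 0.05 in limma there were 5 (27.8%, with 7.47% of all features), 2 higher and 3 lower, and none passed after adjustment. In 12W-Ctrl against 8W-Ctrl 10 had a higher and 8 a lower mean, with a median of 0.03, and 6 were higher and 11 lower in 12W-TTg than in 8W-Ctrl, with a median of −0.21. Rarres2, which encodes the adipokine chemerin, had 4.20 and 3.91 in 12W-TTg, 4.98 and 4.10 in 12W-Ctrl, and 5.38 and 5.55 in 8W-Ctrl. It differed by −0.93 ± 0.33 between 12W-Ctrl and 8W-Ctrl (limma, adjusted p = 0.559) and by −1.41 ± 0.33 between 12W-TTg and 8W-Ctrl (limma, adjusted p = 0.34). Hoxa5, a homeobox gene, differed by −0.79 ± 0.22 in the last comparison (limma, adjusted p = 0.38). Btg2, which also answers to growth signals and stress, had 7.44 and 7.29 in 12W-TTg, 10.84 and 8.42 in 12W-Ctrl, and 8.44 and 7.74 in 8W-Ctrl. Its mean was higher in 12W-Ctrl than in 8W-Ctrl, unlike that of Adh1, but these groups overlapped. The higher mean rested mainly on replicate 1 of 12W-Ctrl.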

How the data were processed

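The authors deposited log2 values per array feature. The submitters' processing notes name Transcriptome Analysis Console 4.0. The summary, background and normalization methods and the genome build are not given in the sources used here. Gene names came from the platform's annotation, and a repeated symbol was represented by its brightest feature. Per the labels' protocols, input was 100 ng, and specimens needed an integrity number above 7.0. The values were fitted without further normalization in limma 3.58.1 (R 4.3.3), with 1 coefficient per group over all 6 arrays (3 residual and 4.13 prior degrees of freedom), two-sided tests and Benjamini-Hochberg adjustment. The number of arrays limits the precision, and exact permutation of 2 against 2 cannot go below p = 0.333. The pipeline was tested on simulated data. The 9 genes and all lists were chosen with earlier results of these data known. Named list genes are those with the largest differences per list among features that are not dim, and the text uses them in part. Genes of the Adh1 and Aldh1a1 neighbourhoods and the single marker genes, among them Upk3b, Myl7, Adipoq, Lep, Cyp2e1 and Alb, were named after their values were seen. Alternatives were quantile normalization, a replicate block, an intensity trend, centring on medians, a robust prior, no dim features, the compared groups alone and leaving out each array.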

Additional observations from a re-analysis of the deposited data

How the results depend on the processing

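The lower Adh1 in 12W-Ctrl than in 8W-Ctrl kept its sign in all 13 alternatives and ran from −3.79 to −3.34 with single arrays left out. In 12W-TTg against 8W-Ctrl it ran from −3.54 to −3.09, and in 12W-TTg against 12W-Ctrl from 0.12 to 0.39. Over the other 8 genes, 288 of 312 alternative differences stayed within 1 replicate SD of the value given, 24 moved by more and 16 changed sign. An intensity trend, a robust prior, a replicate block and leaving out dim features cannot change a difference of means here. Nor can fitting the compared groups alone or leaving out an array outside them. The 288 therefore include many values fixed in advance and overstate the stability. Every alternative that kept both arrays of the compared groups left 0 of the 85 other pathway genes called in limma, in each comparison. Where dim features were left out, 65 of the 85 were tested. In the fit reported 11, 5 and 6 had an unadjusted p under 0.05. Counts of called features were small and unstable. For 12W-TTg against 12W-Ctrl the count was 2 with the compared groups alone, 11 with a replicate block, and 0 to 2 with single arrays left out, where it was 0 without replicate 2 of 12W-Ctrl or either 12W-TTg array and 2 without any of the others. For 12W-Ctrl against 8W-Ctrl it was 0 with an intensity trend, with quantile normalization and without dim features (1719, 1819 and 1444 at an unadjusted p under 0.05), and 0 to 6 with single arrays left out: 0 without either 12W-Ctrl array, 3 and 6 without replicate 1 and 2 of 8W-Ctrl. For 12W-TTg against 8W-Ctrl it was 1 with a robust prior, 5 with a replicate block, and 0 to 22 with single arrays left out, at 4 and 22 without replicate 1 and 2 of 8W-Ctrl and 9 without replicate 1 of 12W-TTg. The causes were not tested. Replicate numbers are not known to pair hearts; deviations of same-numbered arrays correlated at 0.12 to 0.136 across features. No symbol of the 9 genes was repeated, so averaging features could not change them. Values near the dim limit depend on the background.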

Other observations

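The named features nearest to Aldh1a1 by the same distance, a comparison added after its split values were seen, were Vcam1 at 0.43, Nox4 at 0.59, Ccl12 at 0.64, Omd at 0.66 and Fmo2 at 0.67. Vcam1, an adhesion molecule of activated endothelium and stroma, had 6.40 and 7.36 in 12W-TTg, 9.89 and 7.17 in 12W-Ctrl, and 10.21 and 8.62 in 8W-Ctrl. Nox4, an oxidase that makes hydrogen peroxide, had 4.33 and 4.39 in 12W-TTg, 7.22 and 4.97 in 12W-Ctrl, and 6.66 and 6.25 in 8W-Ctrl. Ccl12, a chemokine for monocytes, had 5.29 and 4.96 in 12W-TTg, 7.75 and 5.31 in 12W-Ctrl, and 8.46 and 6.55 in 8W-Ctrl. In Vcam1, Nox4 and Ccl12 replicate 1 of 12W-Ctrl sat with the 8W-Ctrl arrays and replicate 2 with the 12W-TTg arrays. That split is the property the distance to Aldh1a1 selects for, so this is a description. In Omd replicate 1 of 12W-Ctrl, at 6.89, lay between replicate 2, at 5.48, and the 8W-Ctrl arrays, at 8.15 and 7.82. In Fmo2 both 12W-Ctrl arrays, at 10.92 and 9.79, sat with the 12W-TTg arrays, at 10.19 and 10.82, and below 8W-Ctrl, at 13.14 and 12.92. Fmo2 was the 1 gene near to both Adh1 and Aldh1a1 among the 5 nearest to each.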
